A study of Mus musculus with 3 samples.

Results

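The genes described here are 28 genes of cholesterol synthesis and its control, found by symbol among the 19059 genes of the deposited matrices, and all 28 were present. They comprise 7 enzymes of the early mevalonate pathway, 3 that carry farnesyl groups to lanosterol, 9 that turn lanosterol into cholesterol, 5 genes of SREBP control and 4 genes of sterol transport and storage. RNA was counted by gene-specific probes in fixed, viable CD45-bearing cells from livers of newborn mice at postnatal day 0. There were 3 libraries, made from mice labelled pex2+/+ (WT), pex2-/+ (Het) and pex2-/- (KO), with 1 library per genotype. Pex2 encodes a membrane protein of the peroxisome, an organelle that breaks down long fatty acids and makes ether lipids. No tissue-specific driver is named for the null allele, and how many animals were pooled into a library is not stated in the labels. All 3 groups passed through the same slow spin against hepatocytes and the same lysis of red cells.

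Cholesterol is built from acetyl groups by way of mevalonate, squalene and lanosterol. The transcription factor SREBP-2 raises the genes of this pathway when sterol in the endoplasmic reticulum is low: SCAP escorts the SREBP proteins to the Golgi for cleavage, and the INSIG proteins hold SCAP back when sterol is plentiful. Blood and immune cells make cholesterol for new membrane as they divide and take it up from lipoproteins and engulfed cells.

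The libraries labelled WT and Het and the KO library held 96629431, 144589956 and 186295183 UMIs (molecule tags; each stands for 1 captured RNA). Removal of called doublets left 9327, 7814 and 7947 cells. The targeted gene went against the labels: Pex2 stood at 23.6 CPM (counts of a gene scaled to the library's total) in the library labelled WT, at 53.3 CPM in that labelled Het and at 0.0107 CPM in KO, from 2 UMIs. The names "labelled WT" and "labelled Het" are therefore kept throughout, and every direction is read against both. No full cell barcode was shared between libraries. Of the 9600, 8000 and 8245 barcodes, the first 16 bases were shared by 1147 pairs between the libraries labelled WT and Het, 1184 between that labelled WT and KO and 961 between that labelled Het and KO. Values below are CPM of the summed UMIs of a class, always in the order labelled WT, labelled Het, KO. With 1 library per genotype no test was possible. Intervals are exact 95% intervals of the counts, cover counting error only and leave out any difference between animals. CPM are compared for the same gene only, since probes differ between genes.

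A gene was called lower or higher in KO when its CPM differed at least 1.5-fold, the same way, from both other libraries and both intervals of the ratio excluded 1. Genes entered the calls with 30 or more UMIs in all and 10 CPM or more on average over the libraries, in classes with at least 50 cells in each library. Cells were assigned to classes by marker scores. A class is thus a range of a score: before any split by stage or division, between 1 and 76 cells per called class and library lay within 0.05 of a cut. Near the cut on the dividing score lay 113, 136 and 196 cells of the neutrophil lineage and 36, 23 and 40 monocytes. Cells near the border between neutrophil stages were not counted. Over all cells 27 members passed the filter, and Lss did not. There 4 members were called lower in KO and 0 higher, against 13.7% and 2.73% of the 8342 genes that passed, so the lower share was near the background. Under TMM and under DESeq2 scaling 1 was lower and 3 higher, against 6.08% and 11.7% of genes for TMM. Between the libraries labelled Het and WT, 2 members were 1.5-fold lower and 1 higher in that labelled Het, against 2.13% and 4.29%. In sums over all cells, fewer cells of a type and less RNA per cell cannot be told apart.

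Within the early mevalonate pathway, Acat2, the acetyl-CoA thiolase that joins the first acetyl units, stood over all cells at 17.2, 16.04 and 8.72 CPM and was called lower. It has a close paralogue, Acat3, among the measured genes, so its value is uncertain. Hmgcs1, which makes HMG-CoA, had 45.3, 44.8 and 35.2 CPM. The mevalonate kinase gene Mvk had 29.2, 19.4 and 15.3 CPM, with the library labelled Het nearer to KO than to that labelled WT. Pmvk, the next kinase, had 30.6, 30.4 and 21.1 CPM, and the decarboxylase gene Mvd 13.5, 14.1 and 12.6 CPM. Idi1, an isomerase, had 8.26, 13.0 and 9.56 CPM, and Fdps, which makes farnesyl diphosphate, had 62.6, 79.9 and 70.3 CPM. In both of these the KO value lay between the other libraries.

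Of the genes from squalene to lanosterol, the squalene synthase gene Fdft1 had 58.9, 35.7 and 27.7 CPM over all cells. The squalene epoxidase gene Sqle had 14.4, 16.4 and 9.82 CPM, and the lanosterol synthase gene Lss 8.58, 6.76 and 4.45 CPM. All 3 were lowest in KO. Fdft1 and Sqle were not called, and Lss did not pass the filter and so could not be called.

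Among the enzymes that turn lanosterol into cholesterol, Hsd17b7, a sterol ketone reductase, was called lower over all cells with 15.5, 12.6 and 6.12 CPM, and the lanosterol demethylase gene Cyp51 with 15.4, 17.5 and 10.1 CPM. Lbr, a sterol reductase that is also a receptor of the nuclear lamina, was by far the most counted enzyme, at 671, 793 and 830 CPM. The other sterol reductase of this step, Tm7sf2, had 21.3, 20.1 and 14.7 CPM. Msmo1, which acts on methyl groups, had 29.6, 29.0 and 23.99 CPM, and its partner Nsdhl 13.7, 16.1 and 14.8 CPM. The isomerase gene Ebp had 60.1, 53.8 and 48.0 CPM, and the last reductase listed, Dhcr7, 16.1, 16.3 and 11.6 CPM. Sc5d, a desaturase, was the only one of these 9 besides Lbr that was highest in KO, at 14.8, 16.5 and 20.6 CPM, and it was not called.

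Of the control genes, Scap was called lower over all cells at 52.4, 41.8 and 25.3 CPM. Srebf2, which encodes SREBP-2, had 164, 136 and 94.8 CPM. Srebf1, whose protein favours genes of fatty acid synthesis, had 53.1, 52.2 and 47.8 CPM. Insig1 had 52.3, 43.8 and 46.1 CPM and Insig2 had 10.996, 12.1 and 16.1 CPM, so the genes for the proteins that retain SCAP did not follow Scap. For transport and storage, the sterol carrier gene Stard4 had 54.6, 41.1 and 31.8 CPM. The genes of the lysosomal cholesterol exporters, Npc1 and Npc2, had 41.3, 40.6 and 50.7 CPM and 431, 424 and 427 CPM. Soat1, which makes cholesteryl esters, had 71.0, 87.8 and 108 CPM. The classes below show which cells these sums come from.

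**Figure D1:**
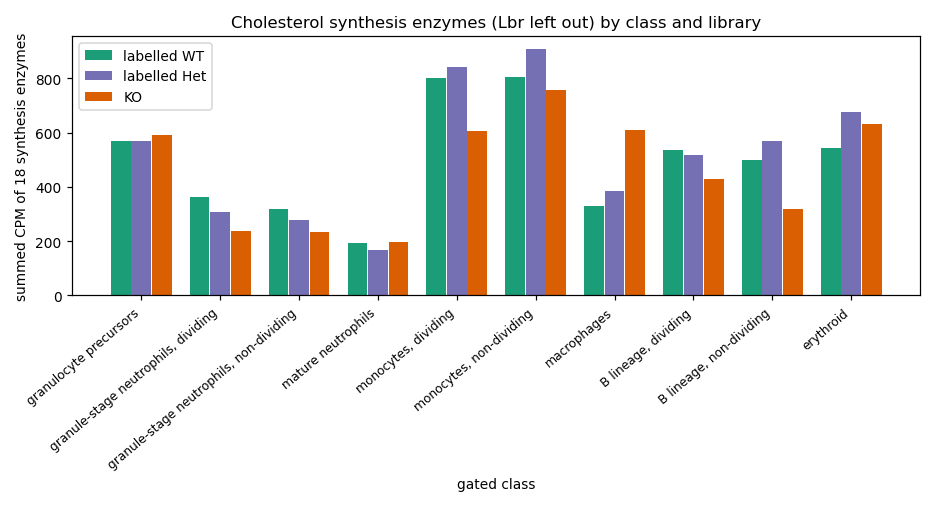
Summed CPM of 18 synthesis enzymes (Lbr left out, since it would dominate the sum) in each gated class with enough cells for calls, with 1 bar per library and no error bar. Of these classes non-dividing monocytes were highest and mature neutrophils lowest in each library, and in non-dividing B-lineage cells the KO bar stood at 319 beside 498 and 570.

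The summed level of the pathway differed between classes in every library. The summed CPM of the 18 enzymes other than Lbr was 569 in granulocyte precursors of the library labelled Het, 308 in dividing and 276 in non-dividing granule-stage neutrophils, and 166 in mature neutrophils. The order was the same in the library labelled WT (567, 364, 318 and 192 CPM) and in KO (592, 236, 232 and 195 CPM). Genes at large fell along these stages too. The median log2 ratio of precursors over mature neutrophils was 1.09, 1.19 and 0.94 over 8010 genes and 1.53, 1.63 and 1.26 over 23 members. For dividing over non-dividing granule-stage cells it was 0.17, 0.14 and 0.11 over 6883 genes and 0.1, 0.11 and -0.05 over 19 members. Monocytes held 804, 881 and 693 CPM, above every neutrophil stage. The ranking that follows covers classes with enough cells for calls, with monocytes and B-lineage cells each taken whole. Plasmacytoid dendritic cells, described below, are thus left out. Among the ranked classes, 7 of 28 members were highest in the erythroid class in all 3 libraries (Acat2, Idi1, Sqle, Lss, Dhcr7, Scap and Stard4). Monocytes were highest for 6 (Hmgcs1, Mvd, Fdft1, Ebp, Srebf2 and Npc2), macrophages for Npc1 and Soat1, and granulocyte precursors for Fdps. The share of all genes highest in each class was not counted, so these counts do not set the members apart from other genes. Soat1 differed most plainly, with 254, 250 and 371 CPM in macrophages and 5.43, 2.34 and 3.83 CPM in the erythroid class.

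**Figure D2:**
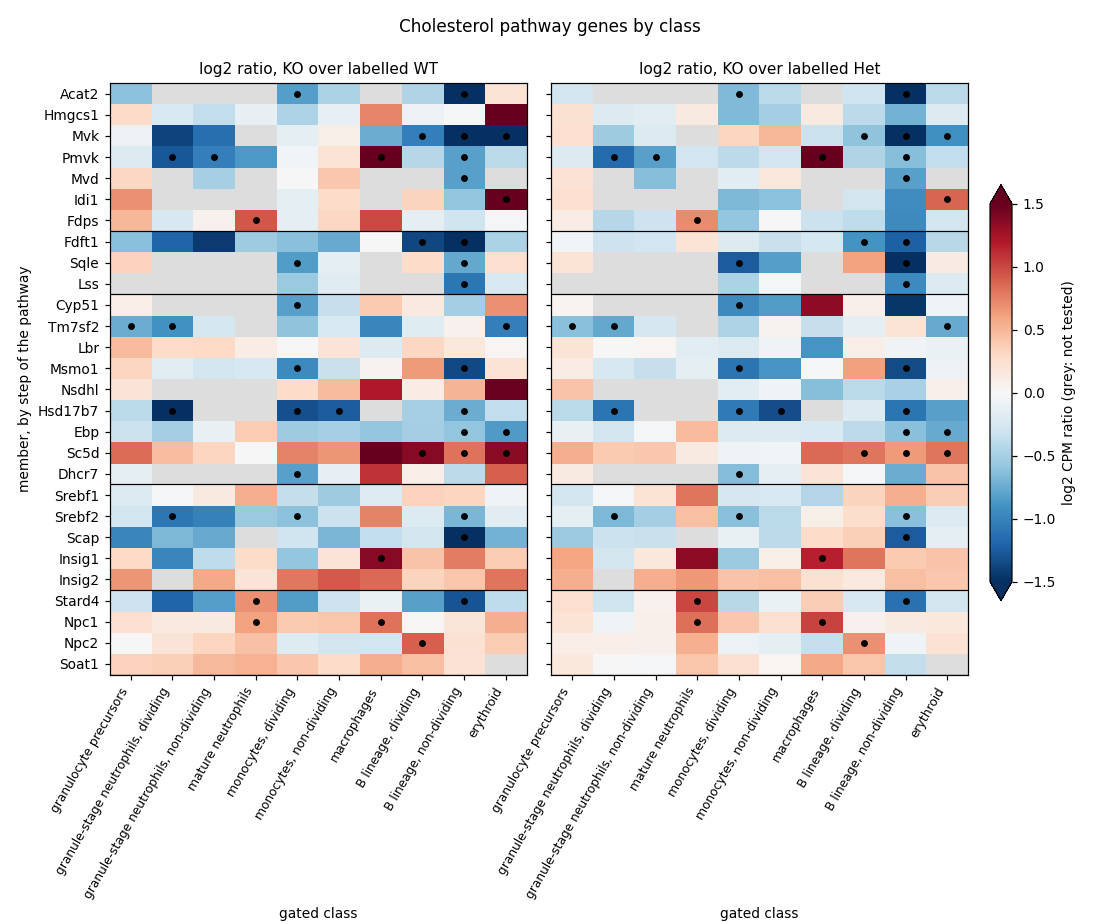
Log2 CPM ratio of each member (rows, by step of the pathway) in each gated class (columns), KO over labelled WT on the left and KO over labelled Het on the right; grey cells did not pass the filter and dots mark members called against both libraries. The densest column of blue is that of non-dividing B-lineage cells.

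Among classes with enough cells for calls, the share of members called was largest in B-lineage cells that were not dividing. In these 1238, 759 and 754 cells all 28 members passed the filter. Of them 13 were called lower in KO and 1 higher, against 14.5% and 5.56% of the 8684 genes that passed in the same cells. The 13 comprised 10 of 19 synthesis enzymes, namely Acat2, Mvk, Pmvk, Mvd, Fdft1, Sqle, Lss, Msmo1, Hsd17b7 and Ebp, and the genes Srebf2, Scap and Stard4. The median log2 ratio of the 19 enzymes was -0.59 (KO over labelled WT) and -0.93 (KO over labelled Het), while the medians over all genes that passed were -0.07 and -0.08. Between the libraries labelled Het and WT, 0 of the 28 members were at least 1.5-fold lower and 5 at least 1.5-fold higher in that labelled Het, against 3.34% and 4.26% of all genes. At that fold, the library labelled Het was thus the higher one wherever those 2 differed. Smaller differences also ran the other way, with Fdft1 and Scap higher in the library labelled WT. Under TMM and DESeq2 scaling, which moved the median of all genes from -0.07 to 0.06 (TMM, against labelled WT), the calls of Pmvk, Ebp and Srebf2 were lost and 10 of the 13 remained lower, against 11.1% and 10.4% of genes.

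Mvk (ENSMUSG00000041939, chr5:114444269-114460591, plus strand, GRCm38) had 54.2 CPM (47.9 to 61.0), 44.1 CPM (38.4 to 50.3) and 15.2 CPM (11.8 to 19.4) in non-dividing B-lineage cells, from 272, 217 and 65 UMIs. The libraries labelled WT and Het overlapped in their intervals and KO lay below both. The library labelled WT was 3.55-fold above KO (2.70 to 4.73) and that labelled Het 2.89-fold (2.18 to 3.87).

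Acat2 (chr17:12942890-12960747, minus strand) had 23.5, 23.1 and 7.04 CPM from 118, 114 and 30 UMIs, a ratio of labelled WT to KO of 3.34 (2.22 to 5.17) and of labelled Het to KO of 3.29 (2.18 to 5.1). Fdft1 (chr14:63145150-63179578, minus strand) had 61.7, 46.9 and 19.9 CPM, 3.10-fold (2.43 to 3.98) and 2.35-fold (1.83 to 3.05) above KO. Msmo1 (chr8:64718139-64733792, minus strand) had 15.7, 15.6 and 6.10 CPM, 2.58-fold (1.64 to 4.19) and 2.56-fold (1.62 to 4.17) above KO. KO lay apart from both others in each of these. For Acat2 and Msmo1 the other 2 libraries lay close together, while for Fdft1 their intervals did not overlap (55.0 to 69.0 and 41.0 to 53.4 CPM). Fdft1 overlaps Ctsb on the opposite strand, and the labels do not give the positions of the probes.

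Among the control genes in these cells, Scap (chr9:110333288-110384950, plus strand) had 157, 133 and 55.6 CPM, 2.83-fold (2.44 to 3.29) and 2.39-fold (2.06 to 2.78) above KO. Srebf2 had 242, 234 and 151 CPM. Srebf1 had 72.3, 61.7 and 90.1 CPM, Insig1 56.5, 73.5 and 96.6 CPM, and Insig2 22.3, 21.7 and 29.8 CPM. These last 3 were highest in KO without being called. Within the control group Srebf2 and Scap were thus lowest in KO, and Srebf1 and the retention genes highest. The call of Srebf2 was lost under TMM and DESeq2 scaling. Of the transport genes, Stard4 had 51.0, 45.1 and 20.6 CPM, while Npc1 had 35.4, 36.5 and 40.1 CPM and Npc2 492, 608 and 578 CPM. Sc5d was the member called higher, at 15.3, 17.5 and 27.2 CPM. Hmgcs1 with 37.2, 59.5 and 36.4 CPM and Fdps with 31.9, 50.3 and 25.8 CPM were highest in the library labelled Het and were not called, since KO was within 1.5-fold of labelled WT. Sqle was also highest there, at 15.3, 27.6 and 8.91 CPM, and was called.

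**Figure D3:**
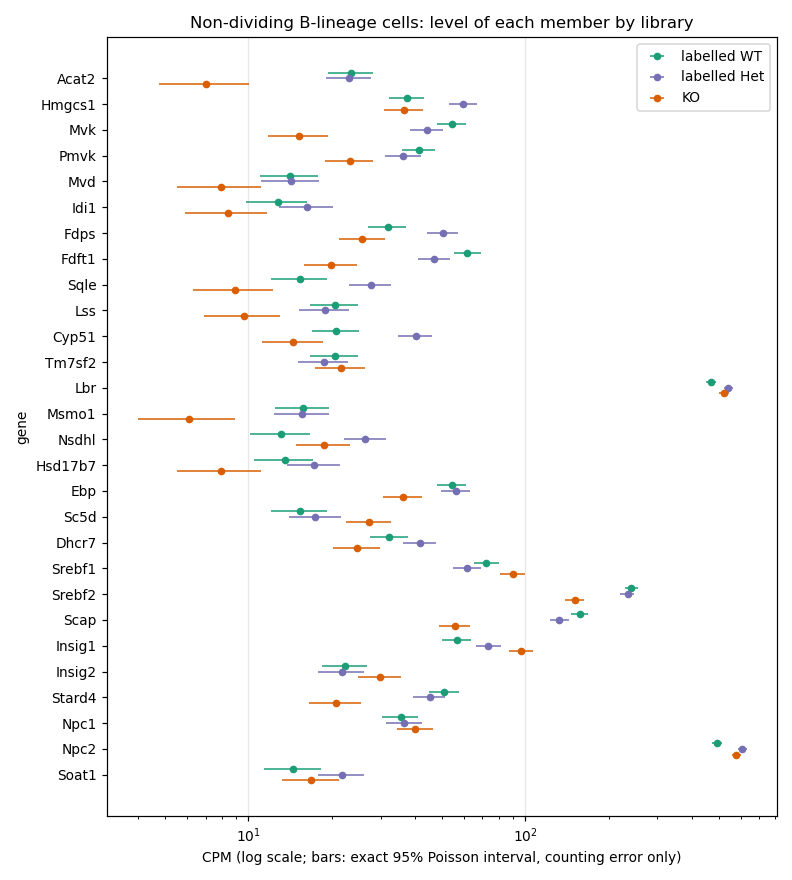
CPM of each of the 28 members in non-dividing B-lineage cells, on a log axis, with a point per library and bars for the exact 95% Poisson interval. For Mvk, Acat2, Fdft1, Msmo1, Scap and Stard4 the KO point lies clear to the left of the other points.

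The B-lineage cells of the 3 libraries also differed in stage, and the values follow. Dividing cells made up 30.8%, 36.9% and 10.7% of the class, by a cut on the dividing score near which 41, 29 and 9 cells lay. In the non-dividing cells, Igll1, a surrogate light chain gene of pre-B cells, had 897, 969 and 85.6 CPM. Ms4a1, which encodes CD20, had 208, 321 and 475 CPM, and Ighd, the IgD heavy chain gene of later B cells, 244, 390 and 584 CPM. The dividing markers summed to 496, 497 and 195 CPM even among cells called non-dividing, with 8 of 8 lowest in KO. To hold stage nearer, cells with a UMI of Ms4a1 or Ighd were taken alone (718, 551 and 580 cells). There 11 of 28 members were called lower and 0 higher, against 12.5% and 5.27% of genes, and 9 of the 11 were synthesis enzymes. Within this subset the dividing markers still summed to 471, 465 and 189 CPM (8 of 8 lowest in KO), the granule-stage neutrophil markers to 3771, 1567 and 1159 CPM (4 of 6 lowest) and the hepatocyte markers to 15.6, 17.9 and 70.5 CPM (7 of 7 highest). Mvk had 50.1, 44.9 and 15.1 CPM in them, Acat2 21.2, 23.2 and 7.25 CPM and Scap 141, 113 and 52.8 CPM. In the 336, 108 and 155 non-dividing cells with none of these stage genes, only 18 members passed, with 2 called lower and 1 higher, against 5.17% and 4.99%.

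RNA of other cells moved with the libraries as well. The 6 markers of granule-stage neutrophils summed to 3620, 1636 and 1216 CPM in non-dividing B-lineage cells, with 4 of 6 lowest in KO, and the 7 hepatocyte markers to 13.5, 18.1 and 62.4 CPM, with 7 of 7 highest in KO. The B-lineage markers summed to 9630, 9733 and 9805 CPM, and Cd3e and Bcl11b of the T-cell list were at 0 in all 3 libraries. The median depth of the whole class was 3968, 7175.5 and 5709 UMIs per cell. The part of stage beyond the subset above, of foreign RNA and of depth in the result was not tested.

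Dividing B-lineage cells (550, 443 and 90 cells) gave another picture. Of 26 members 2 were called lower, Mvk (70.7, 52.5 and 34.4 CPM) and Fdft1 (74.2, 53.2 and 28.3 CPM), and 2 higher, Sc5d (9.49, 14.1 and 24.4 CPM) and Npc2 (340, 394 and 633 CPM). The background was 6.24% and 6.56%, so neither count stood apart. Scap in them had 76.3, 49.2 and 62.6 CPM, Srebf2 155, 113 and 135 CPM, Srebf1 53.3, 53.8 and 67.2 CPM, Insig1 49.6, 38.4 and 66.5 CPM and Insig2 12.4, 14.0 and 15.3 CPM. The difference in Scap and Srebf2 between KO and the rest was thus seen in non-dividing cells, and whether it differs between the 2 states was not tested. Over the class as a whole, 7 of 27 members were lower (Acat2, Mvk, Pmvk, Fdft1, Lss, Hsd17b7 and Stard4), against 13.3%, and 3 higher (Sc5d, Insig1 and Insig2), against 9.77%. Insig1 had 53.0, 52.7 and 89.5 CPM there and Insig2 17.3, 17.2 and 26.4 CPM. Srebf1 had 62.6, 57.0 and 84.7 CPM, Srebf2 198, 163 and 147 CPM and Scap 116, 83.3 and 57.2 CPM.

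Promoters are shown for members of this group because they were low together. RefSeq windows on GRCm38.p6, from 250 bases before to 50 after the start, were found for 23 of 28 members. The stretches below lie before the annotated gene and read 5′ to 3′ along it. Capitals mark a sterol regulatory element (TCACNCCAC), its core (CACNCCAC, contained in the former) or a CCAAT box (CCAAT), each searched on both strands. Lss was added for its single CCAAT box, and Hmgcs1, which was not called, because it alone held the whole element; both were chosen after their values were seen.
Mvk, chr5:114444079-114444268, plus strand: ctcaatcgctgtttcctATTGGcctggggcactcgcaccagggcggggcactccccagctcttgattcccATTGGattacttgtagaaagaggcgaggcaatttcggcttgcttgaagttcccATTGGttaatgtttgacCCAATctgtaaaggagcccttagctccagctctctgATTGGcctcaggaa
Lss, chr10:76531415-76531587, plus strand: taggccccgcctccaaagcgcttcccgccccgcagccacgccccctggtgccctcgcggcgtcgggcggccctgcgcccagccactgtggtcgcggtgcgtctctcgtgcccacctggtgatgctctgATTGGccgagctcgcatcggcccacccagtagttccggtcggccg
Acat2, chr17:12960748-12960915, minus strand: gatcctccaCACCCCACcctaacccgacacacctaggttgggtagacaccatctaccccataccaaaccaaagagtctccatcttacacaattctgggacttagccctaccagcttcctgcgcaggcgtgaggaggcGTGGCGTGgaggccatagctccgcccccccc
Hmgcs1, chr13:119690161-119690350, plus strand: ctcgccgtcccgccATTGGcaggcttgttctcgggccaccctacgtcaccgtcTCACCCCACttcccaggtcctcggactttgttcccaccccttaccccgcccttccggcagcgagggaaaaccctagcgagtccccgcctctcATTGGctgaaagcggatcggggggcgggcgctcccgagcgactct
Mvk carried 5 CCAAT boxes before its start and Acat2 none. Both were called lower in KO, and whether the number of boxes goes with the ratio was not tested. The 23 members had 31 windows, some having several starts. A CCAAT box was present in 22 of the 31, and in 37.5% of the 18366 windows of measured genes. The whole sterol element was found in 1 of the 31 and 1.2% of all windows, and its core in 3 of the 31 (of Hmgcs1, Acat2 and Insig1) and 6.2% of all. A match describes letters in the window and is no evidence of binding.

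Genes around the pathway were read from lists of related genes in the same non-dividing B-lineage cells, to be set beside the 14.5% of all genes called lower and 5.56% called higher there. By that measure the first 3 lists below held about as many lower calls as other genes. Of 17 other genes of cholesterol synthesis and uptake, 14 passed, and 2 were called lower, among them Tmem97 (25.5, 28.4 and 11.02 CPM). Of 9 genes of the isoprenoid branches only Fntb, a farnesyltransferase subunit, was lower, at 22.7, 27.8 and 13.6 CPM. Of 12 fatty acid genes that passed, Fads1 (13.9, 16.2 and 4.69 CPM) and Fads2 (16.5, 18.5 and 6.10 CPM), which encode desaturases of long fatty acids, were lower, and the stearoyl-CoA desaturase gene Scd1 was higher (172, 182 and 313 CPM). Of 6 sterol efflux genes that passed, 4 were higher and 0 lower. The exporter genes Abca1 and Abcg1 had 75.9, 44.5 and 131 CPM and 52.0, 45.3 and 111 CPM, Apoe had 37.6, 30.9 and 83.0 CPM, and Mylip, which encodes a ubiquitin ligase, had 243, 176 and 388 CPM. Apoe is abundant in macrophages, as given below. In these B-lineage cells macrophage markers summed to 9.36, 3.65 and 7.97 CPM and hepatocyte markers to 13.5, 18.1 and 62.4 CPM. The part of foreign RNA in the Apoe value was not tested. No test of a list or of the contrast between lists was made. In the subset with Ms4a1 or Ighd, 4 of the 6 efflux genes were also called higher.

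**Figure D4:**
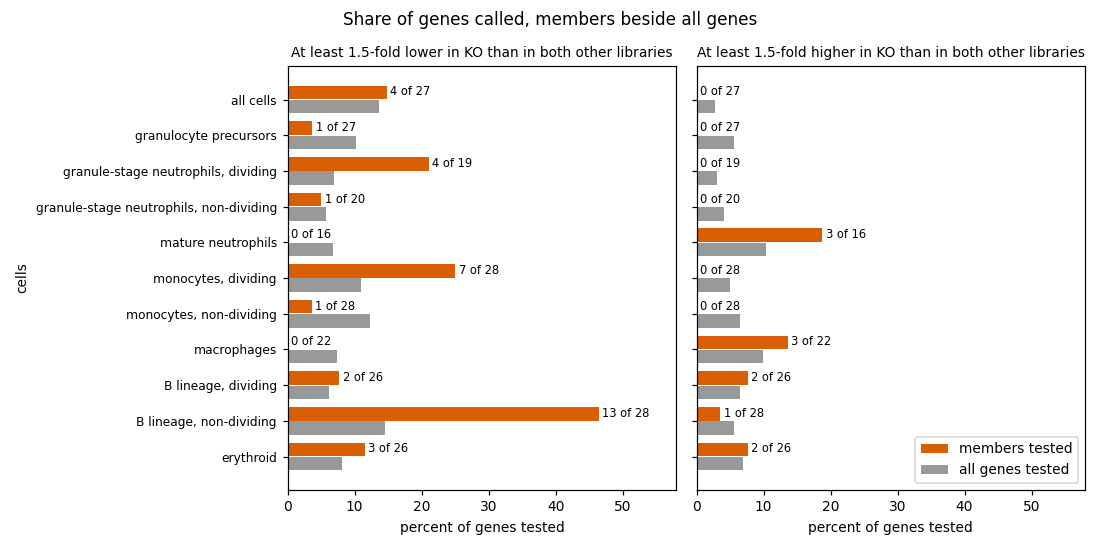
Percent of members that passed the filter (orange, with counts) and of all genes that passed (grey) called lower (left) or higher (right) in KO by the 1.5-fold rule, for all cells and 10 gated classes. Non-dividing B-lineage cells reach 13 of 28 lower against 14.5%, dividing monocytes 7 of 28 against 10.9% and dividing granule-stage neutrophils 4 of 19 against 6.87%.

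In monocytes few members were called. All 28 passed, 1 was called lower and 0 higher, against 11.3% and 5.59% of 8550 genes. The members' median log2 ratio was -0.27 (KO over labelled WT) and -0.22 (KO over labelled Het), beside -0.08 and -0.05 for all genes. In KO 17 of 28 members lay below both other libraries, and how many of all genes did so was not counted. The 1 was Hsd17b7, at 19.5 CPM (16.8 to 22.6), 18.4 CPM (16.2 to 20.8) and 7.90 CPM (6.77 to 9.18). The libraries labelled WT and Het overlapped and KO lay below both. Srebf1 had 88.6, 76.7 and 65.1 CPM, Srebf2 254, 263 and 187 CPM and Scap 48.6, 42.0 and 34.3 CPM. Insig1 had 126, 131 and 120 CPM and Insig2 11.9, 16.03 and 21.9 CPM. Insig2 was highest in KO but not 1.5-fold above the library labelled Het.

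In the dividing monocytes (256, 194 and 275 cells) 7 of 28 members were lower and 0 higher in KO, against 10.9% and 5.02%. Whether they differ from the rest of the class was not tested. They were Acat2, Sqle, Cyp51, Msmo1, Hsd17b7, Dhcr7 and Srebf2. Hsd17b7 had 21.5, 18.1 and 8.63 CPM, Msmo1 33.7, 37.1 and 17.3 CPM, Sqle 32.8, 43.9 and 18.4 CPM, and Cyp51 32.2, 35.8 and 18.4 CPM. Srebf2 had 257, 260 and 167 CPM, 1.54-fold (1.42 to 1.66) and 1.55-fold (1.44 to 1.67) above KO. Scap had 39.3, 34.5 and 32.1 CPM, Srebf1 80.4, 74.5 and 62.6 CPM, Insig1 123, 121 and 82.3 CPM and Insig2 11.7, 15.04 and 20.4 CPM. From labelled WT to labelled Het, 0 members were 1.5-fold lower and 1 higher in these cells, against 3.63% and 5.99%. Under TMM and DESeq2 scaling the calls of Acat2, Dhcr7 and Srebf2 were lost and 4 of 28 remained, against 8.09% and 8.43% of genes, which is nearer to the background. In the 407, 449 and 626 non-dividing monocytes 1 member was lower and 0 higher, against 12.3% and 6.43%, and there Insig1 had 129, 138 and 147 CPM. Of the related genes in dividing monocytes, the fatty acid synthase gene Fasn (106, 95.8 and 39.8 CPM) was also called lower. Markers of granulocyte precursors summed to 2840, 2690 and 2071 CPM in these cells and monocyte markers to 2622, 2431 and 1934 CPM. The part of these in the result was not tested.

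In macrophages, as in mature neutrophils below, the called members lay higher in KO. Of 28 members 22 passed in the 69, 67 and 90 macrophage-gated cells, with 0 lower and 3 higher, against 7.36% and 9.86% of genes, which is close to the background. As many, 3, were 1.5-fold higher and 0 lower when labelled Het was set over labelled WT, against 6.17% and 7.06%. Pmvk had 35.4 CPM (21.3 to 55.3), 53.2 CPM (36.6 to 74.7) and 286 CPM (256 to 318), from 19, 33 and 334 UMIs. Insig1 had 74.6, 85.5 and 193 CPM, 2.59-fold (1.84 to 3.72) and 2.26-fold (1.67 to 3.11) higher in KO. Npc1 had 187, 163 and 329 CPM, 1.77-fold (1.41 to 2.22) and 2.02-fold (1.62 to 2.54) higher. Soat1 had 254, 250 and 371 CPM, just under the fold for a call. KO did not overlap the other libraries in the intervals of these 4 genes.

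Much of the Pmvk count came from few cells, but not all of it. In KO 209 of its 334 UMIs lay in 5 cells, and 1 cell held 67. Without the 5 highest cells of each library it had 21.3, 31.6 and 118 CPM, still highest in KO. The class also differed in make-up: Gpnmb, a gene of lipid-laden macrophages, had 2, 7 and 690 UMIs. Among cells without a Gpnmb UMI (68, 63 and 41 cells, too few for calls), Pmvk had 34.0, 50.7 and 69.3 CPM, Insig1 75.6, 90.5 and 134 CPM and Npc1 189, 166 and 275 CPM. The KO intervals of these 3 genes then overlapped those of the library labelled WT. Against the library labelled Het, those of Pmvk and Insig1 also overlapped, while the KO interval of Npc1 still lay above. Among the 49 KO cells with a Gpnmb UMI, Pmvk had 413 CPM, Insig1 228 CPM and Npc1 361 CPM. Median depth was 6817, 5478 and 13379.5 UMIs per cell, and a Gpnmb UMI is more easily found in a deeper cell.

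**Figure D5:**
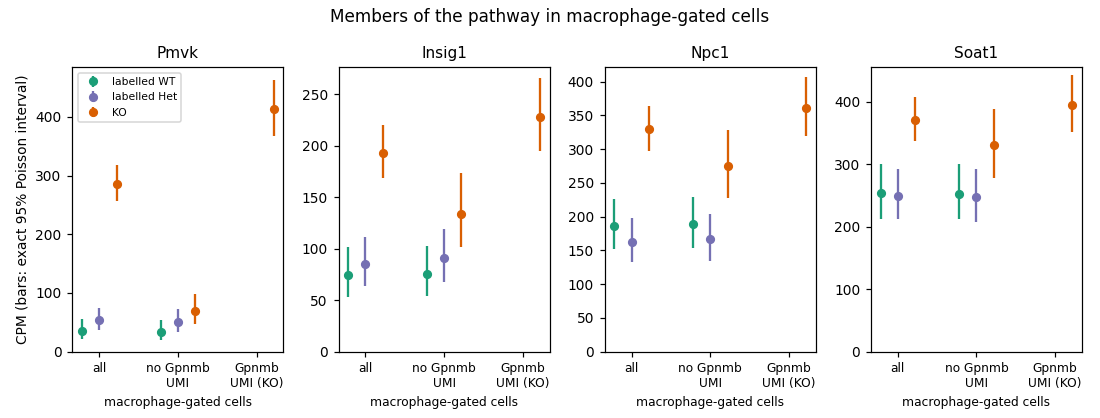
CPM of Pmvk, Insig1, Npc1 and Soat1 in all macrophage-gated cells, in those without a Gpnmb UMI, and in the 49 KO cells with one, with a point per library and exact 95% Poisson intervals. Pmvk in KO stands at 286 CPM over all cells, 69.3 CPM without and 413 CPM with a Gpnmb UMI.

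The other control genes in macrophages were Srebf2 with 54.1, 85.5 and 91.5 CPM, Srebf1 with 93.3, 111 and 82.1 CPM, Scap with 56.0, 35.5 and 43.6 CPM and Insig2 with 11.2, 17.7 and 21.4 CPM, none of them called. Of 14 other synthesis and uptake genes that passed there, 3 were lower and 2 higher, against the 7.36% and 9.86% of all genes. Apoe, the lipoprotein gene abundant in these cells, was called higher at 17926, 19156 and 31346 CPM. The 6 markers of granule-stage neutrophils summed to 10790, 9387 and 1518 CPM in macrophages, with 5 of 6 lowest in KO, and the 8 macrophage markers to 25952, 29135 and 22627 CPM. All 5 stellate and stromal markers were at 0. Their part in the result was not tested.

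In the neutrophil lineage (6235, 5193 and 5558 cells), 21 members passed, and 1 was lower and 0 higher, against 7.77% and 3.02%. That member was Pmvk, at 27.4, 25.4 and 14.7 CPM, the opposite side from macrophages. Srebf2 had 128, 96.9 and 69.2 CPM and Scap 34.2, 27.3 and 18.7 CPM and were not called because KO was within 1.5-fold of labelled Het. Srebf1 had 39.96, 41.5 and 39.8 CPM, Insig1 33.2, 23.6 and 26.01 CPM and Insig2 9.86, 10.3 and 14.0 CPM. Precursors (480, 494 and 412 cells) had 1 of 27 members lower, Tm7sf2 at 32.2, 29.6 and 19.2 CPM, and 0 higher, against 10.2% and 5.52%. In them 14 members lay above and 9 below both other libraries, and how many of all genes did so was not counted. The members' median log2 ratio was 0.1 (KO over labelled WT) and 0.13 (KO over labelled Het), beside -0.04 and -0.04 for all genes. Tm7sf2 overlaps Vps51 on the same strand. Control genes in precursors were Srebf1 with 77.9, 81.2 and 66.9 CPM, Srebf2 with 125, 115 and 104 CPM, Scap with 105, 78.0 and 53.2 CPM, Insig1 with 47.6, 39.0 and 58.8 CPM and Insig2 with 11.3, 12.1 and 17.8 CPM.

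Among dividing granule-stage neutrophils (1235, 1348 and 1504 cells), 4 of 19 members were lower and 0 higher, against 6.87% and 3.02%. As many, 4, were 1.5-fold lower and 0 higher when labelled Het was set over labelled WT, against 2.48% and 4.42%. Pmvk had 27.2, 25.2 and 11.3 CPM, Tm7sf2 20.9, 18.9 and 11.1 CPM, Hsd17b7 16.3, 11.002 and 5.17 CPM, and Srebf2 132, 99.7 and 62.6 CPM. For Hsd17b7 and Srebf2 the library labelled Het lay between the others, while for Pmvk and Tm7sf2 it lay near that labelled WT. Srebf1 had 38.9, 38.6 and 38.1 CPM, Scap 22.04, 17.3 and 13.9 CPM and Insig1 35.1, 21.6 and 17.8 CPM. In the non-dividing stage only Pmvk was lower (25.4, 21.9 and 12.4 CPM) and 0 of 20 were higher, against 5.69% and 4.17%, with Srebf2 at 131, 92.0 and 64.8 CPM, Scap at 21.99, 16.3 and 13.0 CPM, Srebf1 at 31.4, 29.9 and 34.3 CPM, Insig1 at 29.3, 20.0 and 22.5 CPM and Insig2 at 10.49, 10.6 and 15.5 CPM.

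Mature neutrophils (791, 578 and 1213 cells) had 0 of 16 members lower and 3 higher, against 6.83% and 10.3%. From labelled WT to labelled Het, 3 members were 1.5-fold lower and 0 higher, against 7.74% and 8.62%. Npc1 had 48.9, 41.7 and 74.3 CPM, Stard4 9.73, 7.80 and 15.9 CPM and Fdps 9.001, 10.49 and 17.3 CPM. Stard4 was thus lower in KO B-lineage cells and higher in KO mature neutrophils, a difference that was not tested. Srebf1 had 19.0, 15.9 and 27.9 CPM, Srebf2 91.5, 45.4 and 62.2 CPM, Insig1 20.4, 9.68 and 24.8 CPM and Insig2 11.2, 8.07 and 12.9 CPM. The markers of mature neutrophils summed to 34193, 29869 and 22561 CPM in these cells and those of granule-stage neutrophils to 37338, 45505 and 61121 CPM. The dividing markers summed to 147, 198 and 388 CPM, with 7 of 8 highest in KO. The part of these sums in the result was not tested.

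In the erythroid class (59, 148 and 92 cells), 3 of 26 members were lower and 2 higher, against 8.1% and 6.99%. The library labelled Het had 1 member 1.5-fold below that labelled WT and 5 above it, against 7.25% and 6.62%. Mvk had 39.1, 25.9 and 13.6 CPM, Ebp 58.6, 55.6 and 32.7 CPM and Tm7sf2 33.7, 28.5 and 16.7 CPM. Idi1 had 16.3, 48.0 and 87.7 CPM and Sc5d 6.51, 10.2 and 17.8 CPM, both highest in KO with the library labelled Het between. Srebf1 had 106, 79.2 and 102 CPM, Srebf2 165, 170 and 147 CPM, Scap 147, 100.04 and 89.8 CPM, Insig1 51.0, 49.5 and 66.8 CPM and Insig2 11.9, 16.4 and 21.6 CPM. Median depth was 13717, 31735 and 32198 UMIs per cell, and erythroid markers summed to 4839, 5307 and 7088 CPM.

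Over the 5 classes of neutrophil lineage, monocytes, macrophages, B lineage and erythroid cells, Pmvk was the member called both ways. Mvk, Pmvk and Hsd17b7 were those called lower in more than 1 of these classes: Mvk in B-lineage and erythroid cells, Hsd17b7 in B-lineage cells and monocytes, and Pmvk in B-lineage cells and neutrophils. Sc5d and Insig1 were those called higher in more than 1: Sc5d in B-lineage and erythroid cells, and Insig1 in B-lineage cells and macrophages. In macrophages without a Gpnmb UMI, the KO interval of Insig1 overlapped those of both other libraries, as given above. Of the 28 members 14 were never called in any of these classes. The share of all genes called in more than 1 class was not counted. These repeats thus do not set the members apart from other genes.

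Plasmacytoid dendritic-gated cells had the highest levels of the pathway but too few cells for calls (66, 29 and 20). The 18 enzymes other than Lbr summed to 3497, 3028 and 1730 CPM, and 16 of the 19 enzymes were below both other libraries in KO. Their median log2 ratio was -1.04 (KO over labelled WT) and -0.86 (KO over labelled Het), beside 0.00 and -0.04 for all genes. How many of all genes lay below both other libraries was not counted. Hmgcs1 had 657, 543 and 201 CPM, from 456, 224 and 48 UMIs, Fdft1 had 412, 208 and 104 CPM, and Lss had 137, 92.1 and 16.7 CPM, the last from 4 UMIs in KO. Acat2 had 106, 56 and 2 UMIs, a ratio of labelled Het to KO of 16.2 with a counting interval from 4.29 to 137. Of the control genes, Srebf2 had 677, 615 and 643 CPM and Srebf1 85.0, 96.9 and 96.1 CPM, with KO between the others. Scap had 239, 199 and 192 CPM and Insig1 445, 419 and 313 CPM, both lowest in KO. Dividing markers summed to 1892, 1274 and 113 CPM in these cells, with 8 of 8 lowest in KO, and granule-stage neutrophil markers to 5174, 2139 and 856 CPM. The part of cell division and of neutrophil RNA was not tested.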

How the data were processed

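The authors deposited whole-number UMI counts per gene and barcode for 3 libraries, not normalized; per the submitters' processing notes they used Cell Ranger 7.0.0 and mm10, and further settings are not stated in the labels. Scrublet (in scanpy 1.11.5), run on each library apart, marked doublets, which were removed. Each cell was scored for marker lists and placed in the class with the highest score (at least 0.3, with a margin of at least 0.1), and a dividing score of at least 0.5 marked dividing cells. UMIs were summed per library and class and scaled to CPM. Poisson intervals for levels and conditional binomial intervals for ratios were exact, from scipy 1.17.1, and log2 ratios had 0.5 counts added. No test between genotypes was made, since each genotype had 1 library. The script that makes the calls was checked on simulated counts. edgeR 4.0.16 (TMM) and DESeq2 1.42.0 (size factors) gave alternative scalings only. Named within a class were members called, ranked by the smaller log2 ratio (at most 6 each way), and the 5 control genes. Members, lists and class splits were chosen with earlier results of these data known. A few related genes outside the 28 are not reported here by name.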

Additional observations from a re-analysis of the deposited data

Results flagged for a closer look

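Pmvk was called higher in KO in macrophages and lower in 2 other classes. Its log2 ratio of KO to labelled Het was 2.41 in macrophages, -0.79 in the neutrophil lineage and -0.59 in the B lineage. The sign differed between classes against both other libraries. This difference between classes was not tested, since there was 1 library per genotype.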

How the results depend on the processing

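No paired analysis was possible because each genotype had 1 library. The dividing and non-dividing subsets of monocytes and B-lineage cells with all settings within them, the B cells with Ms4a1 or Ighd and the macrophages without Gpnmb were chosen after seeing the data. Of 332 recomputed values, 264 stayed within 1.5 times the count or within counting error, 63 moved further and 5 changed sign. The cause was not tested. Some values could hardly move: medians do not depend on the fold, and scaling shifts members and all genes alike. Counting error here was the typical half-interval of a single member's log2 ratio, not the error of a median. In macrophages it was as wide as 0.91 (KO over labelled WT) and 0.77 (KO over labelled Het). Counts of members in KO follow, with the lower fold meaning a minimum below 1.5-fold. Over all cells, 1 was lower and 3 higher under TMM and under DESeq2 scaling, 13 lower and 2 higher at the lower fold, 1 lower at 2-fold, and 2 lower with the mean of per-cell CPM or with equal class weights. In the neutrophil lineage 0 were lower and 2 higher with TMM, 1 higher with DESeq2, 4 lower and 2 higher at the lower fold, 0 lower at 2-fold, 3 lower without the top 10 genes, with a 1 CPM minimum or without a filter, and 2 lower with Leiden clusters, a stricter gate or non-dividing cells. In monocytes 1 was higher with TMM, 6 were lower and 1 higher at the lower fold, 2 lower in thinned cells or by per-cell means, and 7 lower in dividing cells. In macrophages 1 was higher in thinned cells, 5 by per-cell means, 6 with Leiden clusters and 0 without Gpnmb, and 1 was lower by per-cell means, with Leiden clusters, with a stricter gate or without Gpnmb. In the B lineage 11 were lower and 5 higher at the lower fold, 3 and 0 at 2-fold, 13 and 1 in non-dividing cells, 11 and 0 with Ms4a1 or Ighd, 2 lower in dividing cells, and 1 higher by per-cell means. In its non-dividing cells 3 were higher at the lower fold, 6 lower and 0 higher at 2-fold, and 2 higher against labelled WT alone. In dividing monocytes 4 were lower with TMM or DESeq2, 11 lower and 2 higher at the lower fold, 1 lower at 2-fold, and 2 higher against labelled WT alone. The members' median log2 ratio less that of all genes, KO over labelled Het, changed sign in the neutrophil lineage to 0.01 without a filter, in thinned cells and in non-dividing cells. In dividing B-lineage cells it changed sign to 0.03 (KO over labelled WT) and 0.01 (over labelled Het). It moved over all cells to -0.11 at 1 CPM and -0.06 without a filter (over labelled Het), and to -0.08 without a filter, -0.27 in thinned cells and -0.26 with equal class weights (over labelled WT). It moved to -0.12 in the neutrophil lineage (over labelled WT) without a filter and in non-dividing cells, and to -0.34 in dividing monocytes (over labelled Het). Depth limits thin classes most: macrophages, erythroid and plasmacytoid dendritic cells held under 150 cells per library.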
